A study of Homo sapiens with 6 samples.

Results

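Wnt pathway genes were examined in MHCC97H cells, a human hepatocellular carcinoma line, as rows of a gene count table chosen by symbol. The set held 45 genes, all of them found among the 19202 genes of the table: Wnt ligands, the machinery that secretes them, receptors, extracellular antagonists, the cytoplasmic machinery that controls beta-catenin, and nuclear effectors. Sorafenib-resistant cells, labelled SR (3 libraries), were compared with control MHCC97H cells labelled sorafenib sensitive (3 libraries). Sorafenib blocks several kinases and is given for advanced hepatocellular carcinoma. How resistance was raised, whether the SR cells were 1 clone, and whether drug was present at harvest are not given in the labels, and neither is the origin of the replicates. The p-values therefore reflect only how far these libraries spread, and that spread may be technical.

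Wnt proteins are lipid-modified in the secreting cell and bind a Frizzled receptor together with the co-receptor LRP5 or LRP6. In canonical signalling this stops a destruction complex of AXIN, APC, GSK3 and casein kinase from marking beta-catenin for removal, so that beta-catenin enters the nucleus and acts with TCF/LEF factors. Other Wnts, WNT5A the best known, act mainly through branches that do not use beta-catenin. In the liver the pathway sets the gene programme of hepatocytes around the central vein, and activating mutations of beta-catenin are common in hepatocellular carcinoma.

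The deposited counts summed to between 3745068 and 4961907 per SR library and between 1913469 and 5345272 per control library. Levels are CPM after TMM scaling, with SD and n = 3 per group. A log2 fold change (log2FC) is SR over control from edgeR's quasi-likelihood test, with its standard error (SE), and a gene was called at a Benjamini-Hochberg adjusted p under 0.05 over all 10804 genes tested. Epithelial keratins and the hepatocyte factor HNF4A were well expressed (HNF4A 36.0 to 44.9 CPM in SR and 38.0 to 41.8 CPM in control libraries). Other markers of the same list were not: EPCAM had 0 to 0.818 CPM in SR and 0.377 to 5.14 CPM in control libraries. APOA1 had at most 0.470 CPM and TTR at most 1.17 CPM in any library. GPC3, a common carcinoma marker of liver, had 0.541 CPM in SR replicate 1 and 0 in the other libraries. AFP had at most 3.76 CPM in SR and 4.11 CPM in control libraries. The hepatocyte products ALB, APOB and SERPINA1 were low and lower still in SR, with ALB at 1.62 to 8.39 CPM in SR and 13.4 to 20.8 CPM in control libraries. SR replicate 3 stood apart in endothelial markers: the 7 genes summed to 136 CPM there, 40.9 and 52.4 CPM in the other SR libraries, and 51.9 to 70.6 CPM in control. VWF had 26.2 CPM and CDH5 19.2 CPM in SR replicate 3. PECAM1 had 41.7 CPM there, within its control range of 24.9 to 43.2 CPM. The fibroblast markers also summed highest in this library, to 45.8 CPM, against 17.9 and 12.2 CPM in SR replicates 1 and 2. The sums of the other marker lists were 12.2 to 45.8 CPM in SR and 15.9 to 39.6 CPM in control for fibroblasts, 9.002 to 12.9 and 8.29 to 13.9 CPM for leukocytes, and 118 to 144 and 115 to 142 CPM for cholangiocytes. The most abundant gene of each list over all 6 libraries was KRT8 for hepatocytes (means of 1099 CPM in SR and 1276 CPM in control), KDR for endothelium (37.1 and 25.8 CPM), LUM for fibroblasts (7.73 and 13.4 CPM), PTPRC for leukocytes (4.75 and 2.63 CPM) and KRT19 for cholangiocytes (76.2 and 87.6 CPM). In bulk RNA, fewer cells of a type and less RNA per cell cannot be told apart.

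In SR cells 3 Wnt pathway genes rose, the antagonist DKK1, the ligand WNT7B and the receptor-removing ligase ZNRF3. There were 5 that fell, the ligand WNT5A, the receptor FZD7, the co-receptor LRP6, the R-spondin receptor LGR4 and the kinase GSK3B. Of the 45 genes 34 passed the filter on low counts and were tested, so 8.8% were called higher and 14.7% lower, against 11.7% and 12.3% of all tested genes. The share of called genes among the tested members, 23.5%, was near the 24.1% of all tested genes, so the set does not stand out by its number of calls. The log2FC was negative for 25 and positive for 9 of the tested members, with a median of -0.24, beside a median of -0.01 and 50.6% negative over all tested genes. Libraries of the groups did not overlap for 17 tested members: every SR library lay above every control library for 5, against 19.2% of all tested genes, and below for 12, against 18.9%.

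**Figure D1:**
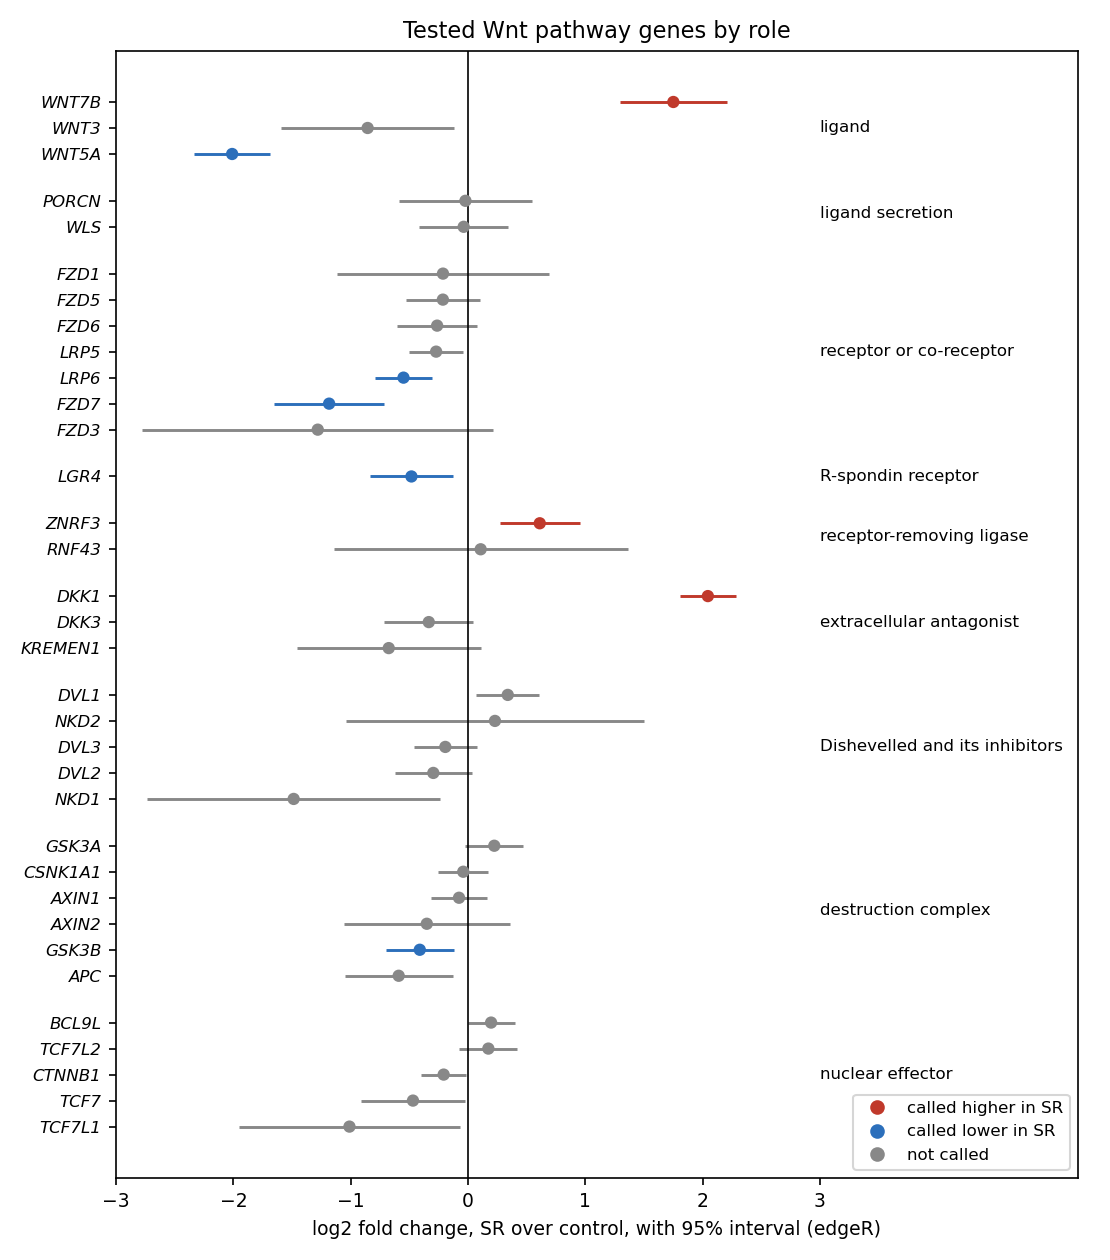
Log2 fold change, SR over control, of the 34 tested Wnt pathway genes with 95% intervals from edgeR, grouped by role; red and blue points mark genes called higher and lower in SR, grey points genes not called. DKK1 (2.05) and WNT7B (1.75) lie farthest to the right, WNT5A (-2.01) farthest to the left.

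Among the ligands, WNT5A and WNT7B changed in opposite directions. WNT5A, which signals mainly without beta-catenin, had 23.3, 28.4 and 28.8 CPM in SR replicates 1 to 3, against 131, 85.9 and 114 CPM in control replicates 1 to 3. All SR libraries were thus far below all control libraries, and the control libraries were the more scattered group. The mean was 26.9 ± 3.11 CPM in SR and 110 ± 22.8 CPM in control cells (SD, n = 3 each), a 4.1-fold lower mean, with a log2FC of -2.01 (SE 0.16) and an adjusted p of 1.28e-12 in edgeR. WNT7B, which in other tissues acts through beta-catenin, had 43.3, 44.2 and 32.3 CPM in SR replicates 1 to 3 and 9.77, 12.6 and 12.3 CPM in control replicates 1 to 3. Its groups were also well apart. The mean was 39.9 ± 6.61 CPM in SR and 11.6 ± 1.57 CPM in control cells (SD, n = 3 each), a 3.45-fold higher mean, with a log2FC of 1.75 (SE 0.22) and an adjusted p of 1.21e-07 in edgeR.

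WNT3, a canonical ligand, had 4.70 to 8.80 CPM in SR and 7.20 to 14.96 CPM in control libraries, and its log2FC of -0.86 (SE 0.37) was not called (adjusted p = 0.0844 in edgeR). Leaving out control replicate 1, where it was lowest among controls, gave an adjusted p of 0.0335, and halving the counts gave 0.0462. In 13 of 15 alternative analyses WNT3 stayed uncalled. WNT5B and WNT11 did not pass the filter. WNT5B, the closest relative of WNT5A, had 14, 6 and 16 counts in the SR libraries and 2, 4 and 0 in the control libraries. These groups did not overlap, but without a filter its adjusted p in edgeR was 0.172. WNT11 had 2 counts in SR and 1 in control libraries in all.

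Levels of different genes were compared per kilobase of annotated exon. On that scale the 5 ligands together had 15.4 ± 0.648 CPM per kb in SR and 23.5 ± 2.51 CPM per kb in control cells (SD, n = 3 each). An exact two-sided permutation test over the libraries gave p = 0.1, the smallest that 3 against 3 allows. WNT5A made up 22.8 to 30.6% of this sum in SR libraries and 65.6 to 82.2% in control libraries. WNT7B made up 43.1 to 57.6% in SR and 7.70 to 12.1% in control libraries. The ligand with the highest level per length was thus WNT7B in each SR library and WNT5A in each control library. For the share of either gene the exact permutation p was 0.1. Here and below, the share of a called gene uses the same values as its call, so its p is no separate support. The 19 other ligand genes looked at, the remaining Wnts, the R-spondins and NDP, were all below the filter and together had 2.86 to 7.05 CPM in SR and 6.97 to 10.3 CPM in control libraries. The secretion machinery was at like levels in both groups: PORCN, which adds the lipid, had a log2FC of -0.02 (95% interval -0.58 to 0.54), and WLS, which carries Wnts to the surface, one of -0.04 (-0.42 to 0.34).

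**Figure D2:**
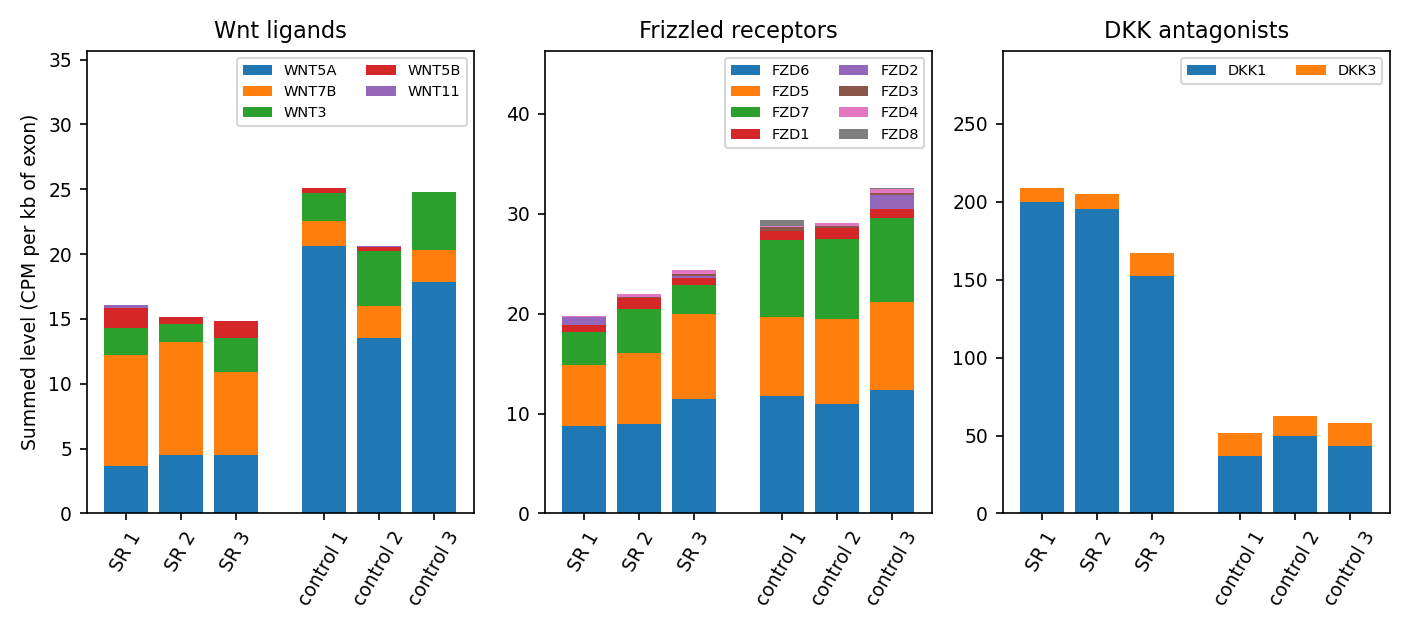
Summed levels in CPM per kb of exon of the Wnt ligands, Frizzled receptors and DKK antagonists, with 1 stacked bar per library and a colour per gene; SR libraries are on the left of each panel. WNT7B is the largest ligand segment in the 3 SR bars and WNT5A in the 3 control bars, and the FZD7 segment is smaller in each SR bar.

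Among the Frizzled receptors, FZD7 fell. It had 12.99, 16.9 and 11.05 CPM in SR replicates 1 to 3, against 29.8, 30.7 and 32.3 CPM in control replicates 1 to 3. The highest SR library was well below the lowest control library. The mean was 13.7 ± 2.995 CPM in SR and 30.9 ± 1.24 CPM in control cells (SD, n = 3 each), a 2.27-fold lower mean, with a log2FC of -1.18 (SE 0.23) and an adjusted p of 0.000176 in edgeR. FZD5 and FZD6 had the other high levels per length of the family and were not called, and within SR both were highest in replicate 3. FZD5 had 40.6 to 57.5 CPM in SR and 53.0 to 59.0 CPM in control libraries, with a log2FC of -0.21 (95% interval -0.53 to 0.10). FZD6 had 34.4 to 44.8 CPM in SR and 42.9 to 48.7 CPM in control libraries, with a log2FC of -0.26 (95% interval -0.61 to 0.08).

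FZD1 and FZD3 were tested at few counts, 74 and 19 over the SR and 73 and 35 over the control libraries, and were not called. FZD2, FZD4 and FZD8 were below the filter. FZD8 had 0 counts in all SR libraries, where 0 counts allow up to 0.234 CPM over the group (0.467 CPM on halved counts), and 4, 0 and 2 counts in control replicates 1 to 3. The 8 Frizzled genes summed to 22.024 ± 2.28 CPM per kb in SR and 30.3 ± 1.99 CPM per kb in control cells (SD, n = 3 each), with an exact permutation p of 0.1. FZD7 gave 11.8 to 20.0% of this sum in SR libraries and 25.6 to 27.4% in control libraries, also with an exact permutation p of 0.1.

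LRP6, one of the 2 Wnt co-receptors, fell, to 78.0, 100 and 94.1 CPM in SR replicates 1 to 3, against 147, 130 and 124 CPM in control replicates 1 to 3. Every SR library was below every control library. Its log2FC was -0.55 (SE 0.12), with an adjusted p of 0.000685 in edgeR. LRP5, the other co-receptor and the more abundant per length, had 179 to 184 CPM in SR and 188 to 277 CPM in control libraries. The log2FC of LRP5 was -0.27 (SE 0.11), not called (adjusted p = 0.0755 in edgeR). Most of that difference came from control replicate 1: without it the log2FC was -0.09 (adjusted p = 0.646). Without control replicate 3 it was -0.36 (adjusted p = 0.0437), but LRP5 stayed uncalled in 14 of 15 alternative analyses. Together the co-receptors had 44.2 ± 0.851 CPM per kb in SR and 56.2 ± 10.5 CPM per kb in control cells (SD, n = 3 each, exact permutation p = 0.1). The log2 ratio of this sum was -0.35 with all libraries and -0.18 without control replicate 1.

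The receptors are removed from the surface by the ligases ZNRF3 and RNF43, which R-spondins hold back through LGR4 and LGR5. ZNRF3 rose, with 56.3, 49.6 and 52.0 CPM in SR replicates 1 to 3 and 38.0, 37.3 and 28.2 CPM in control replicates 1 to 3. The groups did not overlap, and control replicate 3 was the lowest library. The log2FC was 0.61 (SE 0.17) with an adjusted p of 0.00616 in edgeR, and without control replicate 3 it was 0.50 and no longer called (adjusted p = 0.0551). RNF43 was low, with 2.05 to 4.33 CPM in SR and 1.88 to 3.599 CPM in control libraries, and was not called.

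LGR4 had 29.8, 31.7 and 31.5 CPM in SR replicates 1 to 3 and 42.7, 42.2 and 45.2 CPM in control replicates 1 to 3. Both groups were tight and did not overlap. Its log2FC of -0.48 (SE 0.17) was close to the threshold (adjusted p = 0.038 in edgeR), and the call was lost in 9 of 15 alternative analyses. These were the fits without any 1 of the 6 libraries (adjusted p of 0.0601 to 0.121) and with no filter on low counts (0.0746). The others were a filter of at least 1 CPM in 3 libraries (0.0526) and a fit with replicate number as a block (0.0527). LGR5, a liver and intestinal stem-cell marker, was below the filter, with 10 counts over the SR and 16 over the control libraries.

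Of the extracellular antagonists, DKK1, which blocks LRP5 and LRP6, showed the lowest adjusted p of the set. It had 358, 350 and 273 CPM in SR replicates 1 to 3, against 65.8, 89.3 and 78.0 CPM in control replicates 1 to 3. Even the lowest SR library, replicate 3, was far above the highest control library. The log2FC was 2.05 (SE 0.12) with an adjusted p of 1.6e-16 in edgeR, and ranged from 1.97 to 2.17 over 15 alternative analyses. Per length DKK1 had the highest level of the 45 genes in SR cells, 183 ± 26.1 CPM per kb, and stood beside LRP5 and CTNNB1 in control cells at 43.4 ± 6.55 CPM per kb (SD, n = 3 each). DKK3, a divergent family member, had 28.2, 28.0 and 43.2 CPM in SR replicates 1 to 3 and 45.8, 37.9 and 43.4 CPM in control replicates 1 to 3. SR replicate 3, the library with the highest endothelial and fibroblast marker sums, reached the control range. The part of those markers in this value was not tested. The log2FC of DKK3 was -0.33 (adjusted p = 0.204 in edgeR) with all libraries and -0.57 (adjusted p = 0.0515) without SR replicate 3. DKK1 was 91.4 to 95.5% of the summed level of the pair in SR and 70.8 to 79.9% in control libraries (exact permutation p = 0.1).

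KREMEN1, which works with DKK proteins to remove LRP6, had 5.95 to 7.57 CPM in SR and 5.14 to 14.7 CPM in control libraries and was not called. KREMEN2, SFRP1, which binds Wnts, and NOTUM, which strips their lipid, were below the filter with 14, 7 and 20 counts over the SR and 4, 14 and 35 over the control libraries.

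**Figure D3:**
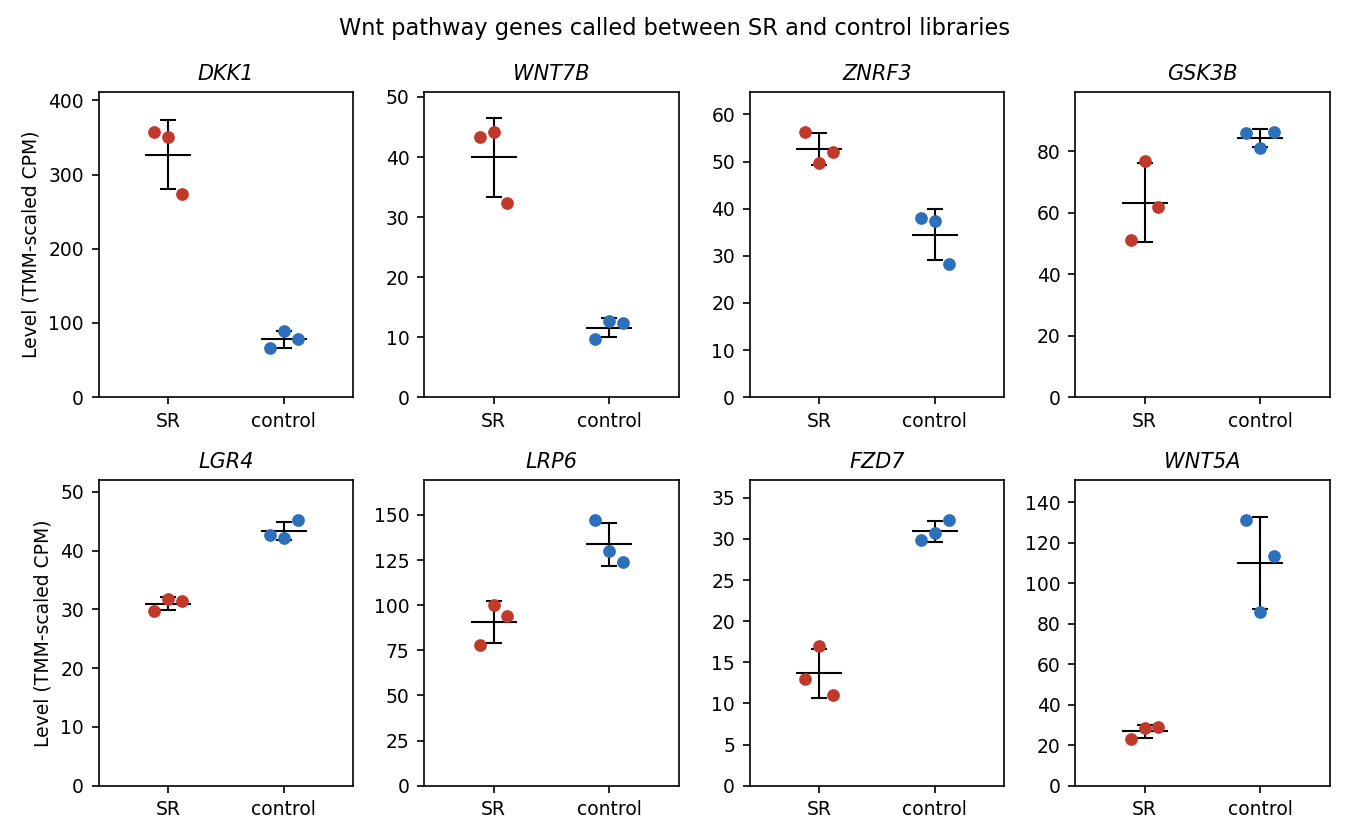
Levels in TMM-scaled CPM of the 8 called Wnt pathway genes in each library (points), with mean and SD (n = 3 per group) in black and SR on the left of each panel. The groups do not overlap for any of the 8 genes, and GSK3B comes closest, with SR replicate 2 at 76.6 CPM and control replicate 2 at 81.0 CPM.

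Promoter sequence is shown for the genes with the largest changes for which it was at hand, DKK1 and WNT5A, and for SP5, because DKK1 and SP5 were the only ones whose window held a TCF/LEF motif. The motif searched was CTTTGAA or CTTTGAT on either strand, in the window from 250 bases before to 50 bases after each RefSeq gene start (GRCh38.p14). Of the 45 genes 28 had windows, 38 in all because some have several starts. A motif was in 2 of the 38 windows, 5.26% (95% Wilson interval 1.46 to 17.3%), beside 6.86% of all 35116 windows and 4.16% of those of tested genes. Each sequence is the 250 bases before the start, 5′ to 3′ on the strand of the gene, with motif matches in capitals. In DKK1 (chr10:52314031-52314280, plus strand) the match CTTTGAA begins at position -95 from the start. In SP5 (chr2:170715087-170715336, plus strand) there are 3 matches, of which those reading TTCAAAG lie on the other strand. WNT5A has 2 annotated starts on the minus strand, one farther upstream (chr3:55487307-55487556) and one downstream (chr3:55481399-55481648), and neither window holds the motif.
DKK1: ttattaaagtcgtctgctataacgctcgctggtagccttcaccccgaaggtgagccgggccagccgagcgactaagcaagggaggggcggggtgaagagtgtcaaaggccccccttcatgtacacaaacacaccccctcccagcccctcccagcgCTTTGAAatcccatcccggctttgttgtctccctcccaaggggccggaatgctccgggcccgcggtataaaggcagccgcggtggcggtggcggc
SP5: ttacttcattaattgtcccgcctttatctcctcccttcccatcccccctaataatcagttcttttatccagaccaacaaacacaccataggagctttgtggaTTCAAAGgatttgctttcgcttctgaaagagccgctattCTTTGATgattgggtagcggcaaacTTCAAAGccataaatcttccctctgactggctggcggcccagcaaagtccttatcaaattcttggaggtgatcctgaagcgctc
WNT5A upstream start: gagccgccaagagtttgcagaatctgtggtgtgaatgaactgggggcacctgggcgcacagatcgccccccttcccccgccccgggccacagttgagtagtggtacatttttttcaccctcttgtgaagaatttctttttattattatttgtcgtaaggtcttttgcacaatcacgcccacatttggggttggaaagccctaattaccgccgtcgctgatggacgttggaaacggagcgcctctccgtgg
WNT5A downstream start: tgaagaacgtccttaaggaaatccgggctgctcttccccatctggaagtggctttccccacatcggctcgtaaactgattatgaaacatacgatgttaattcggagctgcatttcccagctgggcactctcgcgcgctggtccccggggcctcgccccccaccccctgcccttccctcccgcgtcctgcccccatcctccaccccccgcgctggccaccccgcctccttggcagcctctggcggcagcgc
A match is only a run of letters, and SP5, the gene with 3 of them, had 0 counts in the SR libraries and 0, 2 and 2 in control replicates 1 to 3.

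Dishevelled proteins carry the signal from the receptor. DVL1 had 87.7, 90.04 and 83.3 CPM in SR replicates 1 to 3 and 67.9, 76.3 and 61.0 CPM in control replicates 1 to 3. The groups did not overlap, but the log2FC of 0.34 (SE 0.13) was not called (adjusted p = 0.0592 in edgeR). Without control replicate 2 it was 0.44 and called (adjusted p = 0.039), but DVL1 stayed uncalled in 14 of 15 alternative analyses. DVL2 and DVL3 had log2FC of -0.30 (95% interval -0.62 to 0.03) and -0.19 (-0.46 to 0.08) and were not called. The summed level of the 3 genes was 56.7 ± 5.22 CPM per kb in SR and 56.6 ± 3.36 CPM per kb in control cells (SD, n = 3 each, exact permutation p = 1). Within it, DVL1 made up 42.7 to 53.4% in SR and 35.3 to 39.2% in control libraries (exact permutation p = 0.1). NKD1, an inhibitor of Dishevelled and itself a beta-catenin target, had 0.940 to 2.17 CPM in SR and 3.77 to 5.87 CPM in control libraries. Its log2FC of -1.49 rested on 22 counts over the SR and 50 over the control libraries and was not called (adjusted p = 0.0759 in edgeR). NKD2 was not called at 2.82 to 3.68 CPM in SR and 1.17 to 5.14 CPM in control libraries.

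In the destruction complex, GSK3B fell. This kinase, which marks beta-catenin, had 51.2, 76.6 and 61.8 CPM in SR replicates 1 to 3, against 85.9, 81.0 and 86.2 CPM in control replicates 1 to 3. SR replicate 2 came near the control range. The log2FC was -0.41 (SE 0.14, adjusted p = 0.0312 in edgeR). The call was lost without any 1 library other than SR replicate 2, with adjusted p of 0.0549 to 0.206, and the log2FC without SR replicate 1, the lowest library, was -0.27. GSK3A, its relative, had 108 to 123 CPM in SR and 85.3 to 113 CPM in control libraries, a log2FC of 0.22 (95% interval -0.02 to 0.47) that was not called. The 2 kinases together had 38.0 ± 3.58 CPM per kb in SR and 36.6 ± 4.11 CPM per kb in control cells (SD, n = 3 each, exact permutation p = 0.6), with GSK3B at 19.1 to 23.7% of the sum in SR and 27.5 to 32.1% in control libraries (exact permutation p = 0.1).

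The scaffold APC had 17.3, 16.5 and 19.4 CPM in SR replicates 1 to 3 and 30.3, 27.9 and 22.6 CPM in control replicates 1 to 3. The groups did not overlap, and the log2FC of -0.59 (SE 0.23) just missed the threshold (adjusted p = 0.0532 in edgeR). With scaling by library totals APC was called (adjusted p = 0.0446), as it was without control replicate 3 (0.0484). In 13 of 15 alternative analyses APC stayed uncalled. AXIN1, the limiting scaffold, and CSNK1A1, the priming kinase, had narrow intervals around no change, -0.32 to 0.17 and -0.26 to 0.18 in log2FC. AXIN2, the inducible scaffold and a common readout of beta-catenin activity, had 8.93, 7.52 and 8.59 CPM in SR replicates 1 to 3 and 12.3, 10.5 and 9.39 CPM in control replicates 1 to 3. The SR libraries were the lower ones, but the log2FC of -0.35 was not called (95% interval -1.06 to 0.36).

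The nuclear effectors held no called gene with all libraries in the fit. CTNNB1, beta-catenin itself, had 273, 255.1 and 287 CPM in SR replicates 1 to 3 and 332, 310 and 301 CPM in control replicates 1 to 3. The groups did not overlap, but the log2FC of -0.21 (95% interval -0.40 to -0.02) was not called (adjusted p = 0.111 in edgeR). TCF7L2, the main TCF/LEF factor here, had 101 to 111 CPM in SR and 83.0 to 100 CPM in control libraries (log2FC 0.17, 95% interval -0.07 to 0.42). TCF7 and TCF7L1 had log2FC of -0.47 (SE 0.22) and -1.01 (SE 0.46) and were not called (adjusted p = 0.117 and 0.112 in edgeR). LEF1 was below the filter with 2 counts over the SR and 6 over the control libraries. TCF7L2 made up 74.8 to 80.2% of the summed TCF/LEF level in SR and 64.7 to 68.9% in control libraries (exact permutation p = 0.1). BCL9L, which links beta-catenin to its coactivators, had 280 to 353 CPM in SR and 257 to 282 CPM in control libraries and was not called (log2FC 0.20, 95% interval -0.003 to 0.40). Without SR replicate 1 its log2FC was 0.28 and called (adjusted p = 0.0432 in edgeR), but it stayed uncalled in 14 of 15 alternative analyses.

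Of the 26 tested members that were not called, 16 had a 95% interval within a 2-fold change in either direction, and for 10 of these it lay within 1.5-fold. For the other 10 the interval reached past 2-fold, so that at this depth such a change was not excluded: AXIN2, APC, TCF7L1, FZD1, FZD3, WNT3, RNF43, NKD1, NKD2 and KREMEN1.

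**Figure D4:**
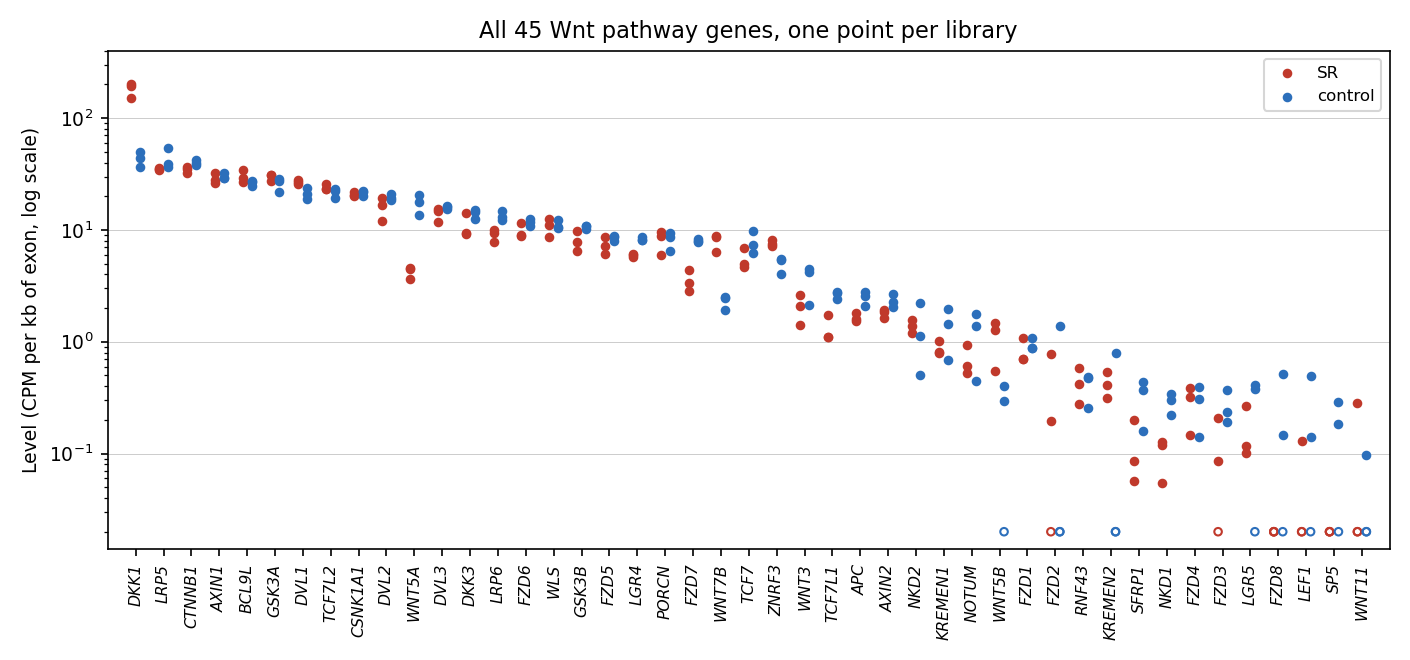
Level of all 45 Wnt pathway genes in CPM per kb of exon on a log axis, ordered by the higher group mean, with 1 point per library (red SR, left; blue control, right); open points at the foot mark libraries with 0 counts. DKK1 leads in SR, and 4 genes at the right end, FZD8, LEF1, SP5 and WNT11, have 0 counts in several libraries.

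Some members are also textbook targets of beta-catenin, a grouping made after their values were seen. Of these, DKK1 and ZNRF3 rose, where 11.7% of all tested genes were called higher and 12.3% lower. No result about targets is drawn from so few genes picked in this way. AXIN2, NKD1, RNF43 and TCF7 were tested and not called, and LEF1, LGR5, NOTUM and SP5 were below the filter. Of the 37 target genes outside the set that were looked at, 35 were in the table and 29 tested, with 8 higher (27.6%) and 6 lower (20.7%) and a median log2FC of -0.01. Over all tested genes 11.7% were higher and 12.3% lower. The higher ones with the smallest p were the ephrin receptor gene EPHB2 (log2FC 2.32, SE 0.24), the cell-cycle gene CCND1 (0.88, SE 0.11), the urokinase receptor gene PLAUR (1.30, SE 0.19) and the claudin gene CLDN1 (0.54, SE 0.14). The lower ones with the smallest p were the metalloproteinase gene MMP7 (-1.51, SE 0.13), fibronectin FN1 (-0.79, SE 0.09), EPHB3 (-2.70, SE 0.36) and the survival gene BIRC5 (-0.71, SE 0.12). EPHB2 and EPHB3, both known as targets in intestine, thus lay on opposite sides: EPHB2 had 47.0 ± 11.1 CPM in SR and 10.1 ± 4.15 CPM in control cells, and EPHB3 3.48 ± 1.39 CPM in SR and 23.7 ± 7.64 CPM in control cells (SD, n = 3 each). Of 25 liver targets, 7 of which are members, 9 were tested. The higher ones (22.2%) were TBX3 (log2FC 0.74), already counted among the 8 higher targets above, and the member ZNRF3. ALDH3A1 (-1.97) was lower (11.1%).

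The rest of the pathway was taken from lists of genes outside the set, and their shares stand beside 11.7% higher and 12.3% lower over all tested genes. Of 13 other receptors and co-receptors 4 were tested and 3 (75%) were lower: LRP4 (log2FC -1.50, SE 0.14), an antagonist-binding relative of LRP6, ROR1 (-0.75, SE 0.16), a WNT5A receptor, and CD44 (-0.38, SE 0.10), which is also in the target list. ROR1 had 41.1 ± 7.26 CPM in SR and 70.1 ± 9.66 CPM in control cells (SD, n = 3 each). Of 18 other antagonists 2 were tested and IGFBP4 was lower (log2FC -0.26, SE 0.10). Of 29 other cytoplasmic effectors 24 were tested, with 4 higher (16.7%) and 2 lower (8.33%). BTRC (log2FC 0.93, SE 0.18) and FBXW11 (0.66, SE 0.16), the F-box proteins that recognise marked beta-catenin, were both higher. So were the Dishevelled-binding CCDC88C (0.75, SE 0.18) and the ligase subunit RBX1 (0.61, SE 0.22), while TNKS (-0.56, SE 0.15), which promotes AXIN breakdown, and the phosphatase subunit PPP2R5A (-0.41, SE 0.15) were lower.

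Of 27 other nuclear cofactors, 26 of them in the table, 22 were tested, with 1 higher (4.55%) and 4 lower (18.2%). The higher one was the corepressor CTBP2 (log2FC 0.64, SE 0.11). The lower ones were PYGO2 (-0.80, SE 0.12), which binds BCL9 proteins, EP300 (-0.33, SE 0.10), TBL1X (-0.56, SE 0.17) and CREBBP (-0.35, SE 0.11). Of 40 genes of planar cell polarity and other beta-catenin-independent branches 32 were tested, with 3 higher (9.38%) and 8 lower (25%) and a median log2FC of -0.14. RAC1 (0.41, SE 0.09), CELSR3 (1.13, SE 0.24) and PRKCA (0.29, SE 0.09) were higher. NFATC2 (-0.86, SE 0.13), CELSR1 (-0.52, SE 0.11), CAMK2D (-0.51, SE 0.13) and CELSR2 (-1.11, SE 0.36) were the lower ones with the smallest p. The 3 CELSR cadherins thus differed in direction, CELSR3 higher and CELSR1 and CELSR2 lower. In edgeR the adjusted p of the genes named from these lists ranged from 4.91e-16 for ALDH3A1 to 0.0433 for PPP2R5A.

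The called genes lie on several chromosomes (GENCODE 29, GRCh38, matched by symbol). DKK1 is at chr10:52314296-52318042 and FZD7 at chr2:202034587-202038445, both on the plus strand. WNT5A is at chr3:55465715-55490539 and GSK3B at chr3:119821323-120094417 on the minus strand. WNT7B, at chr22:45920362-45977129 on the minus strand, shares its chromosome with ZNRF3, at chr22:28883592-29057487 on the plus strand. LRP6 is at chr12:12116025-12267012 and LGR4 at chr11:27365961-27472775, both on the minus strand. In the annotation 18 of the 45 genes share exon bases with another gene. Where the partner is on the opposite strand, reads cannot be told apart without a stated strand setting: for DKK1 this is 11.8% of exon bases, shared with PRKG1-AS1, and for BCL9L 37.8%, shared with CXCR5, which had 0 counts in every library. Partners on the same strand cannot be told apart by strand at all, and they cover 58.5% of the exon bases of RNF43 (AC004687.2), 35.1% of CSNK1A1 (AC021078.1) and 28.4% of AXIN2 (AC004805.1). Stretches of 31 bases that also occur in transcripts of another gene were rare, at most 7.2% of a transcript (FZD2), and 3.08% for FZD7, mostly shared with FZD2.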

How the data were processed

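RNA extraction used Trizol and a Direct-zol kit and libraries the EasyRNA-seq protocol, per the labels. The authors deposited whole-number counts per gene symbol, not normalized, and 6 of 6 single-library files equalled the table of the whole series. HISAT2, Bowtie2 and Trimmomatic are named, per the submitters' processing notes, with no role. The counter, build, annotation and strand setting: not given in the sources used here. In the table, 27 symbols turned into dates were renamed from the Entrez ID. Between 63.6 and 69.1% of non-zero counts were even, and a fit on halved counts was run as an alternative. If each fragment was counted as 2 reads, the counts printed are 2 per fragment and a floor of 3 fragments is 6 deposited counts. Intervals and floors from counts cover counting error only. With counts halved, replicate pairs gave chi-square values of 1.78 to 2.86 times their degrees of freedom, and no library was treated as a duplicate.

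Low-count genes were removed with filterByExpr, and the rest scaled by TMM and tested by edgeR 4.0.16 (quasi-likelihood F test, group as the only term) in R 4.3.3. The procedure was run on simulated counts with 200 genes changed by known amounts. That is far fewer than the 2601 genes called here, so its error rates need not hold for these data. The SE is the log2FC over the square root of F. Levels per kb used the union of protein-coding exons of GENCODE 29 basic transcripts, which need not be those used in these cells. The floor for 0 counts is 3 counts over the group. Alternatives used limma 3.58.1 and DESeq2 1.42.0. Plotting used Python 3.11.15 and matplotlib 3.10.9.

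The members and the gene lists were chosen with earlier results of these data known. Values were printed for each called member and its partners by role, and for most other members as ranges and counts. Outside this, DVL1 and CTNNB1 were printed per library, and NKD1, TCF7 and others of their roles with fold changes. No Dishevelled gene or inhibitor and no nuclear effector was called. They were also printed for the 4 called genes with the smallest p per direction of each other list. For each cell type the most abundant marker was printed. Some further markers, among them HNF4A, ALB, VWF and PECAM1, were printed outside this rule.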

Additional observations from a re-analysis of the deposited data

How the results depend on the processing

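DKK1, WNT5A, WNT7B, FZD7 and LRP6 kept their direction and their call under all 15 alternatives run for each (other scalings and filters, DESeq2, limma-voom, replicate block, halved counts, each library left out). Members called higher ranged from 2 to 4 and members called lower from 3 to 5 with 1 library left out. Over all tested genes the same fits called 1028 to 1107 higher and 973 to 1154 lower. The count of 3 members lower arose without control replicate 2, SR replicate 1 or SR replicate 3. With library totals only and with halved counts 6 members were lower, beside 1432 and 1406 genes over all tested. At an adjusted p under 0.01 there were 800 genes higher and 851 lower over all tested genes. Of the members, 3 were higher and 3 lower at that threshold. The median log2FC of all tested genes was -0.006, and no scaling turned the direction of a called member. Small differences turned sign when 1 library was left out, with log2FC of -0.16 to 0.72 for NKD2, -0.16 to 0.17 for PORCN, -0.19 to 0.36 for RNF43 and -0.16 to 0.11 for WLS. Log2 ratios of summed levels did so too, at -0.0453 to 0.075 for the Dishevelled genes, -0.13 to 0.0364 for the TCF/LEF genes and -0.0353 to 0.13 for the GSK3 genes. The Dishevelled ratio was also -0.0076 under upper-quartile scaling and -0.0215 under library totals. The shorter motif CTTTG was in 34.2% of member windows, 47.5% of all windows and 39.8% of those of tested genes. The causes of these changes were not tested.

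Same-numbered replicates did not deviate together (correlations of -0.015, 0.033 and -0.00648), and 2 of 6 libraries correlated best with their own number, so the numbers were not taken to pair samples. With the replicate block, 1248 genes were higher and 1270 lower, and 3 members were higher and 4 lower, LGR4 not being called.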
